A study of Mus musculus with 4 samples.

Results

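The 10 genes described here encode alpha chains of integrins: Itgal, Itgam, Itgax, Itgae, Itgav, Itga2, Itga4, Itga5, Itga6 and Itga9. They were taken by name and found by their mouse Ensembl identifiers among the 39179 genes counted. The libraries were made from polyadenylated RNA of macrophages sorted from subcutaneous tumours of FVB mice, as cells positive for CD45, CD11b and F4/80 and negative for GR1. The MycCaP-BMP4 group (2 libraries) came from tumours of MycCaP cells with overexpression of the growth factor BMP4. The MycCaP group (2 libraries) came from tumours of the parental line, which was derived from a MYC-driven prostate tumour of a mouse. The labels name no age and no other allele or treatment. Only the sample titles of the MycCaP-BMP4 group mention F4/80, although the gate is labelled alike for every sample. Whether samples of 1 group came from different mice is not labelled, so the p-values below rest on a spread that may be technical.

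An integrin is a pair of 1 alpha and 1 beta chain that spans the cell membrane, and the alpha chain largely sets what the pair binds. Itgal (CD11a), Itgam (CD11b) and Itgax (CD11c) pair with the beta-2 chain Itgb2 on leukocytes and bind cell-surface ligands such as ICAM-1, and, for CD11b and CD11c, complement fragments. Itgae (CD103) pairs with Itgb7 and binds E-cadherin, Itga4 pairs with Itgb1 or Itgb7 and binds VCAM-1 and fibronectin, and Itga9 pairs with Itgb1. Itga5 with Itgb1 is the classical fibronectin receptor, Itgav pairs with several beta chains in receptors for matrix proteins with an RGD sequence, Itga6 binds laminins and Itga2 binds collagens.

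The chains known from leukocytes lay lower in MycCaP-BMP4 macrophages, and Itga5 and Itgav did not. Itgam, Itgax, Itgal, Itgae, Itga4, Itga9 and Itga6 had their MycCaP-BMP4 values below every MycCaP value, and Itga5 and Itgav had them above. Of the 10 genes 9 were tested, and the groups did not overlap for 7 that were lower and 2 that were higher. Over all genes tested, 29.7% lay lower and 28.9% higher in this way, so the 2 higher genes are near the background share. The median log2 fold change of the 9 genes was -1.45, beside -0.03 for all genes. No alpha integrin gene passed the test, and neither did any other gene: 0% of 14075 genes had an adjusted p under 0.05 in edgeR's quasi-likelihood test (Benjamini-Hochberg). That test gave 2680 genes at an unadjusted p under 0.05, and limma-voom called 0 genes. DESeq2 called 1385 genes, 3.01% of those tested being lower and 6.83% higher, and 3 of them were alpha integrins, all lower (Itgal, Itgax and Itgae). The 5 alpha integrin genes at an unadjusted p under 0.05 (Itgal, Itgae, Itga4, Itga9 and Itgax) were all lower, where 6.76% of all genes were lower at that level. The calls turned on the MycCaP-BMP4 libraries: Itgal, Itgax, Itgae and Itga9 passed edgeR's test without MycCaP-BMP4 replicate 1 (adjusted p from 0.000761 to 0.0458), a fit that called 2.63% of all its genes as lower. Itgal, Itgam, Itgax, Itgae, Itga4 and Itga9 passed it without replicate 2 (adjusted p from 5.86e-05 to 0.00198), where 20.2% of all genes were called as lower. In each case the remaining MycCaP-BMP4 library is assumed to vary like the MycCaP pair. When all libraries were instead scaled on 15 pan-macrophage genes, described below, the median of the 9 genes was -0.20, beside 1.66 for all genes. On that scale only Itgax and Itga9 still lay lower without overlap, and Itga5 and Itgav higher.

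Gene counts per library ranged between 23058263 and 24967143, so that a floor of 3 counts, which covers counting error only, equals 0.120 to 0.130 CPM (counts per 1000000). Values below are CPM with TMM scaling factors, and each pair of values is replicate 1 and then replicate 2. Bmp4 had 512 and 182 CPM in MycCaP-BMP4 libraries and 0.175 and 0.0422 CPM in MycCaP libraries. Which cells these reads came from was not tested. Throughout, the macrophages of a group stand for its sorted samples as a whole, with any other cells in them. The 15 pan-macrophage genes, among them Adgre1 and Csf1r, were detected in all 4 libraries. Their median stood at 19.5% and 71.7% of the MycCaP mean in the MycCaP-BMP4 libraries. Single genes ranged from 13.5% to 30.4% in replicate 1 and from 37.1% to 117% in replicate 2. Of the 15, 13 lay lower in both, as did 29.7% of all genes tested. In these bulk samples fewer cells of a type and less RNA per cell cannot be told apart. Summed tumour epithelial markers were higher in the MycCaP-BMP4 libraries, at 1726 and 720 CPM over 15 genes, against 155 and 192 CPM in the MycCaP libraries, with Krt5 at 0 throughout. The median log2 difference of the 15 genes from the MycCaP mean was only 0.04 and 0.34. Of the 8 tested, 6 lay higher and 1, Cdh1, lower without overlap, beside 28.9% and 29.7% of all genes tested. Krt15 and Cldn3 were among the highest of these markers, and Epcam, Cldn7, Krt14 and Krt18 were under 1 CPM in each library. With 2 libraries against 2, an exact permutation test of a single gene cannot go below a two-sided p of 0.333.

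**Figure D1:**
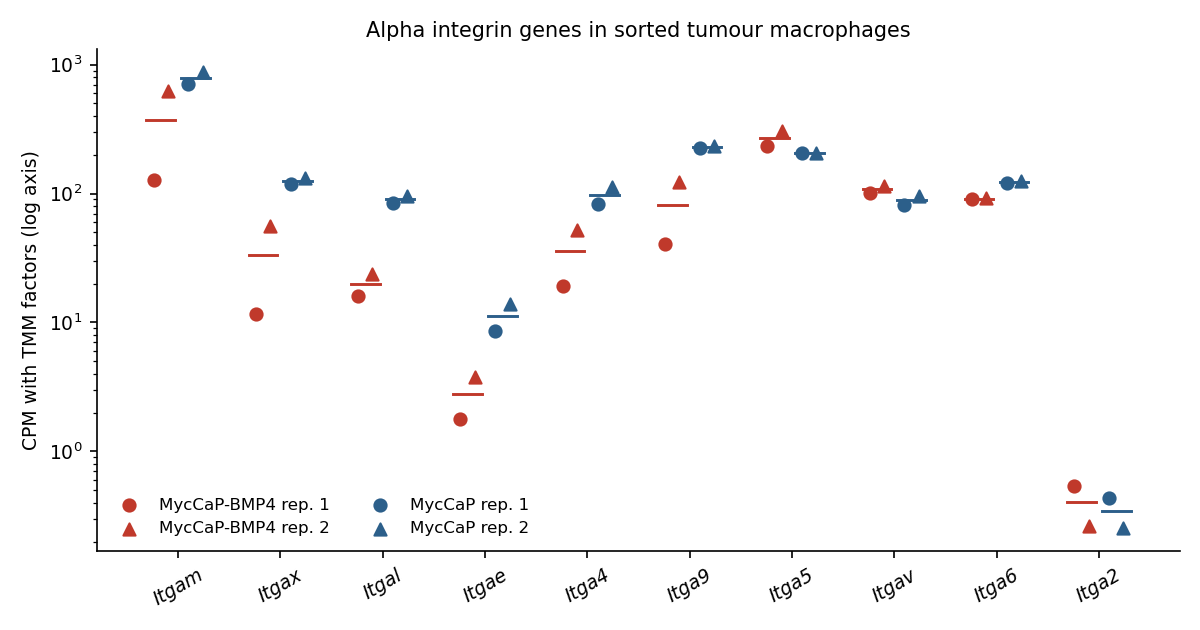
Normalised counts of the 10 alpha integrin genes in each library, as CPM on a log axis. Points are libraries (red, MycCaP-BMP4; blue, MycCaP; circle, replicate 1; triangle, replicate 2) and bars are group means. Itgal has its red points close together at 16.0 and 23.8 CPM, while those of Itgam lie far apart at 127 and 620 CPM.

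The genomic windows before the start sites are shown for a pair of genes that lay lower, Itgam and Itgax, and a pair that lay higher, Itga5 and Itgav. RefSeq start sites on GRCm38.p6 matched 7 of the 10 genes, all but Itgal, Itgae and Itga6. RefSeq starts can differ from the GENCODE gene starts given below. Each window holds the 250 bases before the start, 5′ to 3′ on the strand of the gene. Itgam lies at chr7:128062390-128062639 on the plus strand, Itgax at chr7:128129300-128129549 on the plus strand, Itga5 at chr15:103366792-103367041 on the minus strand and Itgav at chr2:83724147-83724396 on the plus strand. Capitals mark matches, on either strand, to GAGGAA (an ETS box of the kind PU.1 binds), TGTGGT (RUNX), GGGCGG (Sp1 box), TGANTCA (AP-1) and GGCGCC (a GC-rich SMAD1/5 element), and no matches overlapped.

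Itgam: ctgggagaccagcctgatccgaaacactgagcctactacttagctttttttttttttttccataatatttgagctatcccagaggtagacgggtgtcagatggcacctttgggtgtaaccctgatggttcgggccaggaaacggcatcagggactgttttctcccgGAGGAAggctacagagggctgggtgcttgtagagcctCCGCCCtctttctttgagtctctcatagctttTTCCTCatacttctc
Itgax: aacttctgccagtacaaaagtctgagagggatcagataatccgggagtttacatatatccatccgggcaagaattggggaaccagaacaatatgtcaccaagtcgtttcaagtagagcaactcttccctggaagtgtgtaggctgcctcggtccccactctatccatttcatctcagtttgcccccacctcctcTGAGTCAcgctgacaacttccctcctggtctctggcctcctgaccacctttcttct
Itga5: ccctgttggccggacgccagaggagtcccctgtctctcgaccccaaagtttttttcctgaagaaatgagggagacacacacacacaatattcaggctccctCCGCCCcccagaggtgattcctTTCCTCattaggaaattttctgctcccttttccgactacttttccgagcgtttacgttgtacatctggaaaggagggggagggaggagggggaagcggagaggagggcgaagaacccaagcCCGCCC
Itgav: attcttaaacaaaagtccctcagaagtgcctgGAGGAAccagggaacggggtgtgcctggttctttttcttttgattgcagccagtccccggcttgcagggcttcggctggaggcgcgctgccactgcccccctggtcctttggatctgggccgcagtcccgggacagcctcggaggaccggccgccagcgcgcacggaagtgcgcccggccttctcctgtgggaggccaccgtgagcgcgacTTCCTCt

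Itgam and Itgav each held GAGGAA at 2 places and Itga5 at 1, while Itgax held none and had the one TGANTCA match among the 7 windows. Of the 32851 windows of all RefSeq genes, 23.3% held GAGGAA, 14% TGTGGT, 32.7% GGGCGG, 6.75% TGANTCA and 9.59% GGCGCC. Among the 7 alpha integrin windows 3 held GAGGAA, 3 GGGCGG, 1 TGTGGT, 1 TGANTCA and 0 GGCGCC. So the GAGGAA box was in a gene that lay lower and in both genes shown that lay higher. These are letter matches only.

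Among the alpha chains of the beta-2 integrins, Itgam (chromosome 7, 128062640 to 128118491, GRCm38) encodes the CD11b protein by which the cells of both groups were sorted. It had 127 and 620 CPM in MycCaP-BMP4 macrophages and 714 and 876 CPM in MycCaP macrophages. Replicate 1 of the MycCaP-BMP4 group was far below the other 3 libraries, and replicate 2 was just below the MycCaP libraries. The log2 fold change was -1.09 ± 0.74 (SE, edgeR adjusted p = 0.461), -0.36 without MycCaP-BMP4 replicate 1 and -2.61 without replicate 2. As a percentage of the MycCaP mean Itgam stood at 16.0% and 78.0%, close to the pan-macrophage medians of 19.5% and 71.7%. When libraries were scaled on the pan-macrophage genes its log2 fold change was -0.09 ± 0.93 (SE, edgeR adjusted p = 0.946), and the groups overlapped. Over all alternatives the adjusted p of Itgam ran from 0.000164 to 0.946.

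Itgax (chromosome 7, 128129547 to 128150657), a chain used as a marker of dendritic cells and of some tissue macrophages, lies next to Itgam on the same strand. It had 11.6 and 55.7 CPM in MycCaP-BMP4 macrophages and 119 and 132 CPM in MycCaP macrophages, so both MycCaP-BMP4 libraries were below both MycCaP libraries, replicate 1 by far. Its log2 fold change was -1.90 ± 0.70 (SE, edgeR adjusted p = 0.238). DESeq2 called it (log2 fold change -1.89, adjusted p = 0.0325), and over all alternatives the adjusted p ran from 5.86e-05 to 0.890. Of the windows printed, that of Itgax held the TGANTCA match. Itgax stood at 9.24% and 44.4% of the MycCaP mean, below the pan-macrophage median of each library. In replicate 1 it was below every pan-macrophage gene, and in replicate 2 it was inside their range. When libraries were scaled on the pan-macrophage genes in place of all genes, it had 47.5% and 60.4% of the MycCaP mean, against 89.2% and 111% in the MycCaP libraries. Without MycCaP-BMP4 replicate 1 the log2 fold change was -1.17, and without replicate 2 it was -3.41. On the pan-macrophage scale its log2 fold change was -0.89 ± 1.09 (SE, edgeR adjusted p = 0.522). Dendritic cell markers moved the same way: 10 of 12 lay lower in both MycCaP-BMP4 libraries, as did 29.7% of all genes tested. Their median log2 differences from the MycCaP mean were -1.90 and -0.87, and none was at 0 in all libraries. Their summed level was 174 and 139 CPM in MycCaP-BMP4 macrophages and 109 and 133 CPM in MycCaP macrophages, of which Cd24a alone held 150 and 83.1 CPM in MycCaP-BMP4 macrophages and 21.7 and 26.2 CPM in MycCaP macrophages. Their part in the Itgax values was not tested.

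Itgal (chromosome 7, 127296260 to 127335138) encodes CD11a, the chain of LFA-1, which T cells, NK cells and myeloid cells use to adhere to ICAM-1. It had 16.0 and 23.8 CPM in MycCaP-BMP4 macrophages and 85.0 and 95.0 CPM in MycCaP macrophages. The MycCaP-BMP4 libraries were close to each other and well below both MycCaP libraries, unlike Itgam and Itgax. Itgal had the smallest p of the 9 genes, with a log2 fold change of -2.18 ± 0.30 (SE, edgeR adjusted p = 0.101, unadjusted p = 0.000436). DESeq2 called it (adjusted p = 3.45e-06, the lowest of its alternatives, which reach 0.837), and its log2 fold change was -1.92 without MycCaP-BMP4 replicate 1 and -2.47 without replicate 2. In replicate 1 its 17.7% of the MycCaP mean was near the pan-macrophage median of 19.5%, and in replicate 2 its 26.4% was below the median of 71.7%. Scaled on the pan-macrophage genes the groups overlapped, at 91.3% and 35.9% of the MycCaP mean in MycCaP-BMP4 libraries against 88.9% and 111% in MycCaP libraries, with a log2 fold change of -0.65 (adjusted p = 0.643). T and NK cell markers lay low as well: 16 of 18 were lower in both MycCaP-BMP4 libraries, as were 29.7% of all genes tested. Their median log2 differences were -2.28 and -1.96. Summed, they had 21.9 and 57.6 CPM in MycCaP-BMP4 macrophages and 130 and 125 CPM in MycCaP macrophages, and none was at 0 in all libraries. Their part in the Itgal values was not tested.

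Per kilobase of exon, which allows levels of different genes to be compared, Itgam supplied most of the beta-2 alpha chains in every library. Together Itgam, Itgax, Itgal and Itgad, the fourth beta-2 partner, summed to 30.4 and 139 CPM per kb in MycCaP-BMP4 macrophages and 182 and 218 CPM per kb in MycCaP macrophages. Itgam made up 83.4% and 88.6% of the sum in MycCaP-BMP4 macrophages and 77.9% and 79.8% in MycCaP macrophages. The share of Itgax was 7.93% and 8.32% in MycCaP-BMP4 macrophages, against 13.6% and 12.6% in MycCaP macrophages. Itgal took 7.99% and 2.6% in MycCaP-BMP4 macrophages and 7.10% and 6.62% in MycCaP macrophages, so its share differed from the MycCaP range downward only in replicate 2. Itgb2 itself had 39.5 and 178 CPM per kb in MycCaP-BMP4 macrophages and 191 and 183 CPM per kb in MycCaP macrophages. The sum of alpha chains over Itgb2 was 0.770 and 0.781 in MycCaP-BMP4 macrophages, against 0.956 and 1.20 in MycCaP macrophages. Itgad had 0.869 and 2.99 CPM in MycCaP-BMP4 macrophages and 11.4 and 9.58 CPM in MycCaP macrophages (log2 fold change -2.45 ± 0.67 SE, edgeR adjusted p = 0.163).

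**Figure D2:**
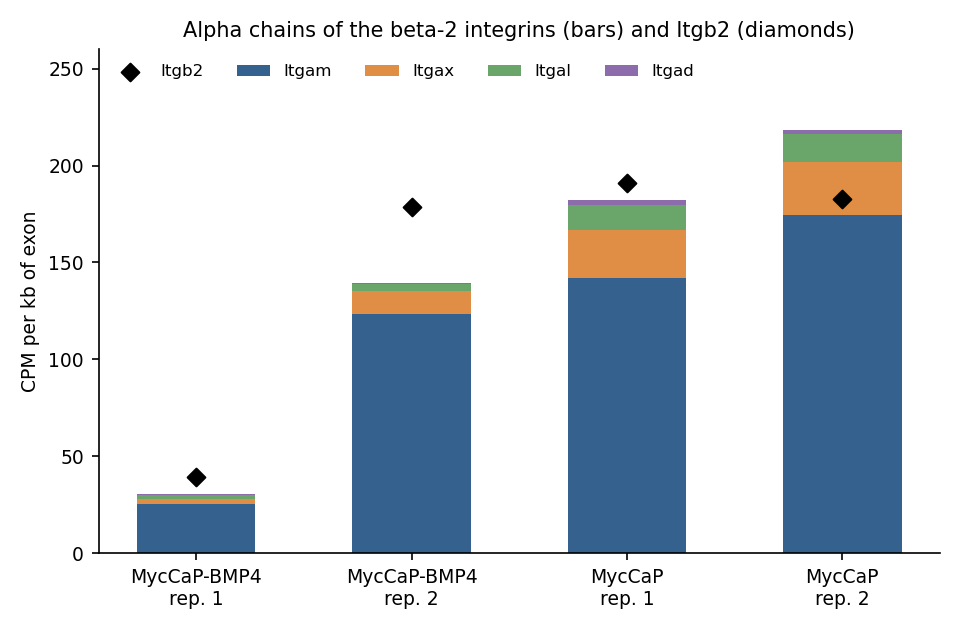
Levels of the beta-2 integrin chains per library, in CPM per kilobase of exon, with the 4 alpha chains stacked (bars) and Itgb2 as black diamonds. The diamond lies above the bar in both MycCaP-BMP4 libraries (39.5 over 30.4, and 178 over 139) and, by less, in MycCaP replicate 1 (191 over 182). The orange Itgax segment is 7.93% and 8.32% of the bar in MycCaP-BMP4 libraries and 13.6% and 12.6% in MycCaP libraries.

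Itgae (chromosome 11, 73090583 to 73147446) encodes CD103, which is found on tissue-resident T cells and on a class of dendritic cells. Per kilobase of exon it was the lowest of the 9 tested genes. It had 1.77 and 3.78 CPM (49 and 86 counts) in MycCaP-BMP4 macrophages and 8.57 and 13.8 CPM (196 and 328 counts) in MycCaP macrophages. All values of the MycCaP-BMP4 group were below those of the MycCaP group, and the log2 fold change was -2.02 ± 0.55 (SE, edgeR adjusted p = 0.163; DESeq2 adjusted p = 0.00928, with 0.00198 to 0.890 over all alternatives). Without MycCaP-BMP4 replicate 1 it was -1.57, and without replicate 2 it was -2.63. Scaled on the pan-macrophage genes Itgae had 80.6% and 45.3% of the MycCaP mean in MycCaP-BMP4 libraries and 71.2% and 129% in MycCaP libraries, so the groups overlapped. The T and NK cell and dendritic cell markers given for Itgal and Itgax lay lower beside it, and their part in the Itgae values was not tested. Haspin, a kinase gene inside the Itgae locus on the other strand, had 118 and 130 counts in MycCaP-BMP4 macrophages and 86 and 131 counts in MycCaP macrophages, and the strand setting of the counting is not given in the sources used here. The beta partner Itgb7 was also lower, at 5.87 and 12.1 CPM in MycCaP-BMP4 macrophages and 31.3 and 25.5 CPM in MycCaP macrophages (log2 fold change -1.66 ± 0.43 SE, edgeR adjusted p = 0.155). The ligand gene of CD103, Cdh1 (E-cadherin), had 0.326 and 1.93 CPM in MycCaP-BMP4 libraries and 5.16 and 4.05 CPM in MycCaP libraries.

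Itga4 (chromosome 2, 79255426 to 79333123), the chain of VLA-4, by which monocytes attach to VCAM-1 on endothelium, had 19.3 and 52.5 CPM in MycCaP-BMP4 macrophages and 83.3 and 112 CPM in MycCaP macrophages. Itga9 (chromosome 9, 118606690 to 118901003), a related chain that binds tenascin-C and VCAM-1, had 40.8 and 123 CPM in MycCaP-BMP4 macrophages and 225 and 232 CPM in MycCaP macrophages. For both genes the groups were apart and replicate 1 of the MycCaP-BMP4 group was the lowest library. The log2 fold changes were -1.45 ± 0.50 for Itga4 and -1.48 ± 0.54 for Itga9 (SE, edgeR adjusted p = 0.223 and 0.234). As percentages of the MycCaP mean they were alike, at 19.8% and 53.7% for Itga4 and 17.9% and 53.9% for Itga9. Scaled on the pan-macrophage genes Itga4 overlapped between the groups (log2 fold change -0.20, 101% and 72.6% in MycCaP-BMP4 libraries, 79.7% and 120% in MycCaP libraries), while Itga9 had 92.2% and 73.4% in MycCaP-BMP4 libraries beside 92.6% and 107% in MycCaP libraries (-0.27). Without MycCaP-BMP4 replicate 1 the log2 fold changes were -0.90 for Itga4 and -0.89 for Itga9, and without replicate 2 they were -2.31 and -2.46. Cerkl, which overlaps Itga4 on the other strand, had 6 and 29 counts in MycCaP-BMP4 libraries and 33 and 50 counts in MycCaP libraries.

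Itga5 and Itgav lay slightly above the MycCaP values. Itga5 (chromosome 15, 103344286 to 103366763) had 235 and 308 CPM in MycCaP-BMP4 macrophages and 206 and 206 CPM in MycCaP macrophages. The MycCaP libraries were nearly equal and both MycCaP-BMP4 libraries lay above them, replicate 2 more so. The log2 fold change was 0.40 ± 0.31 (SE, edgeR adjusted p = 0.510). Itgav (chromosome 2, 83724397 to 83806916) had 100.2 and 115 CPM in MycCaP-BMP4 macrophages and 82.2 and 95.0 CPM in MycCaP macrophages, with groups that were apart by a small margin and a log2 fold change of 0.28 ± 0.26 (SE, edgeR adjusted p = 0.573). Both differences are close in size to their standard errors.

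In the MycCaP-BMP4 libraries Itga5 stood at 114% and 149% of the MycCaP mean and Itgav at 113% and 130%, in libraries whose pan-macrophage medians were 19.5% and 71.7%. Scaled on the pan-macrophage genes, Itga5 had 588% and 203% of the MycCaP mean in MycCaP-BMP4 libraries (log2 fold change 1.98 ± 1.00 SE, edgeR adjusted p = 0.180) and Itgav 581% and 176% (1.92 ± 1.07 SE, edgeR adjusted p = 0.211). On that scale the median of all genes was 1.66, so neither gene stood far from it. Over all alternatives the adjusted p ran from 0.145 to 0.962 for Itga5 and from 0.211 to 0.979 for Itgav. The printed windows of both genes held the GAGGAA box, as did that of Itgam. Summed tumour epithelial markers were also higher in both MycCaP-BMP4 libraries (1726 and 720 CPM, against 155 and 192 CPM in MycCaP libraries). Of 12 bone and cartilage markers 8 were tested, and 5 were higher and 1 lower without overlap, beside 28.9% and 29.7% of all genes tested. The sum over the 12 was 146 and 84.8 CPM in MycCaP-BMP4 libraries and 21.5 and 31.4 CPM in MycCaP libraries. Sox9 alone held 128 and 65.5 CPM of that sum in MycCaP-BMP4 libraries and 11.2 and 19.3 CPM in MycCaP libraries, while Bglap and Sp7 were under 1 CPM in each library. Fibroblast and mural cell markers summed to 494 and 399 CPM in MycCaP-BMP4 libraries and 263 and 632 CPM in MycCaP libraries. Their part in the Itga5 and Itgav values was not tested.

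**Figure D3:**
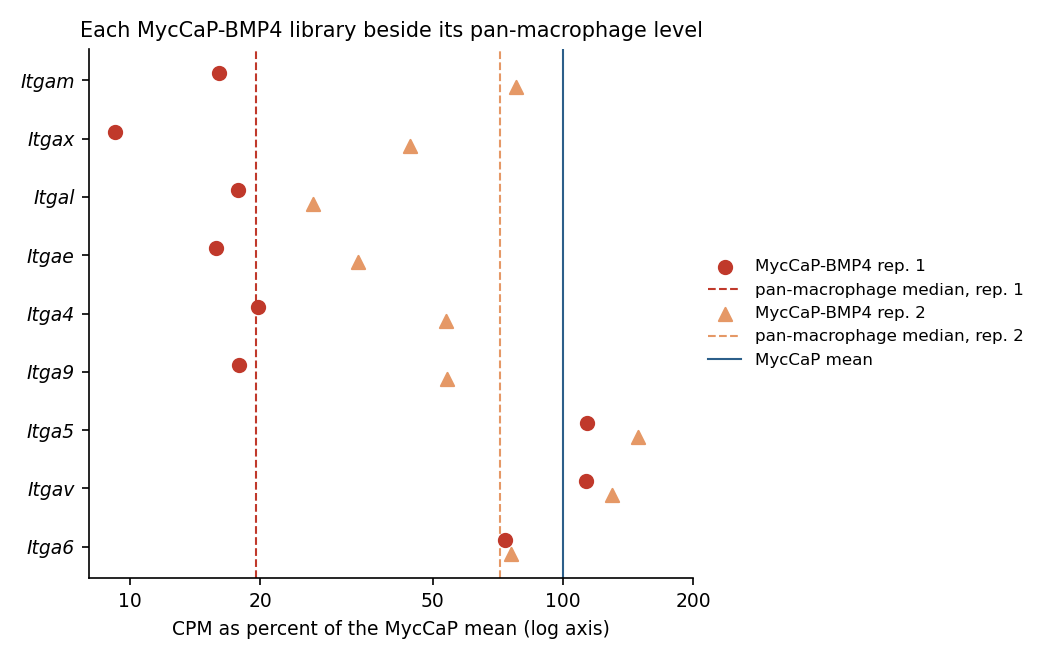
CPM of the 9 tested genes in each MycCaP-BMP4 library as a percentage of the MycCaP mean, on a log axis (dark circles, replicate 1; light triangles, replicate 2; blue line, MycCaP mean). Dashed lines give the median of the 15 pan-macrophage genes in the same library, 19.5% and 71.7%. Itga5 and Itgav lie right of the blue line. Itgax, Itgal, Itgae and Itga9 lie left of the dashed line of their own library in both replicates. Single pan-macrophage genes spanned 13.5% to 30.4% in replicate 1 and 37.1% to 117% in replicate 2. Itga9 lay inside that range in both, Itgax below it only in replicate 1, and Itgal and Itgae only in replicate 2.

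Itga6 (chromosome 2, 71745616 to 71858416), a laminin receptor of epithelium, endothelium, platelets and some myeloid cells, had 90.2 and 92.7 CPM in MycCaP-BMP4 macrophages and 120 and 125 CPM in MycCaP macrophages. Values within each group were close and the groups did not overlap. The log2 fold change was -0.42 ± 0.25 (SE, edgeR adjusted p = 0.393), and on the pan-macrophage scale it turned to 1.27 ± 1.05 (SE, edgeR adjusted p = 0.352) with overlapping groups. Its adjusted p ran from 0.162 to 0.943 over all alternatives. Itga2 (chromosome 13, 114833081 to 114932100), the collagen receptor chain of platelets and epithelium, had 15 and 6 counts in MycCaP-BMP4 libraries and 10 and 6 counts in MycCaP libraries. It did not pass the filter on low counts, its groups overlapped, and no difference was detectable at this depth. Of 8 platelet markers 2, Gp6 and Gp1bb, had no count in any library. Among the others, Itga2b had 52 and 54 counts in MycCaP-BMP4 libraries and 20 and 9 counts in MycCaP libraries. Pf4 had 73.5 and 352 CPM in MycCaP-BMP4 libraries and 674 and 419 CPM in MycCaP libraries.

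**Figure D4:**
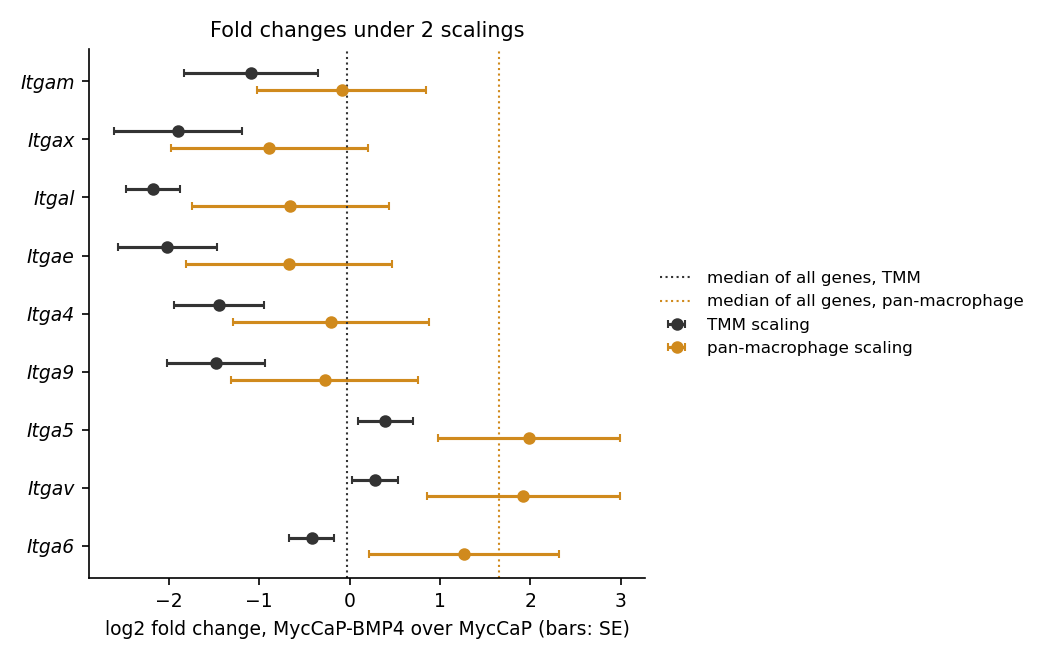
Log2 fold changes (MycCaP-BMP4 over MycCaP) of the 9 tested genes with standard errors, under TMM scaling (dark) and under scaling on the pan-macrophage genes (ochre). Dotted lines mark the median of all genes, -0.03 and 1.66. Itga6 is at -0.42 under TMM and at 1.27 under the other scaling, and none of the values passed the test.

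The order of the genes by level per kilobase of exon is set by union exon lengths from GENCODE M21, which count every annotated isoform (13978 bases for Itga4, 4581 for Itgae). In MycCaP-BMP4 macrophages Itgam came first at 74.4 ± 69.4 CPM per kb (SD, n = 2, as for all values here) and Itga5 second at 55 ± 10.4, and their values overlapped: in replicate 1 Itga5 had 47.7 CPM per kb and Itgam 25.4. Itga9 (10.7 ± 7.57), Itga6 (10.1 ± 0.20), Itgav (10.03 ± 0.99) and Itgax (7.01 ± 6.50) overlapped, as did Itgax with Itgal (3.02 ± 0.84) and Itgal with Itga4 (2.57 ± 1.68). Itgae (0.606 ± 0.309) and Itga2 (0.0565 ± 0.0277) were last. In MycCaP macrophages the order was Itgam at 158 ± 22.8 CPM per kb, Itga5 at 41.8 ± 0.023, Itga9 at 29.7 ± 0.72 and Itgax at 26.1 ± 1.90, whose neighbours did not overlap. Itgal (13.7 ± 1.07) and Itga6 (13.6 ± 0.34) overlapped there, as did Itgav (8.25 ± 0.84) and Itga4 (7.00 ± 1.47), ahead of Itgae (2.45 ± 0.81) and Itga2 (0.0484 ± 0.0183). The ratio of Itga5 to Itga4, both fibronectin receptor chains, was 34.5 and 16.6 in MycCaP-BMP4 macrophages and 7.02 and 5.21 in MycCaP macrophages, with no overlap. The ratio of Itgav to Itgam was 0.368 and 0.0869 in MycCaP-BMP4 macrophages, against 0.0539 and 0.0507 in MycCaP macrophages.

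The other alpha integrins and the beta chains give the context of possible pairs. Of 8 further alpha chains 7 were tested, 4 were higher and 3 lower without overlap, and 0 passed. Over all genes tested, 28.9% were higher and 29.7% lower in this way. Itga3, a laminin receptor of epithelium, had 145 and 66.6 CPM in MycCaP-BMP4 macrophages and 34.4 and 51.4 CPM in MycCaP macrophages (log2 fold change 1.30 ± 0.44 SE, edgeR adjusted p = 0.218). Itga2b, the platelet chain, had 1.88 and 2.37 CPM in MycCaP-BMP4 macrophages and 0.875 and 0.380 CPM in MycCaP macrophages. Itga7 and Itga10 also lay higher and Itga1 and Itga8 lower, each under 3 CPM in every library, and Itga11 was not tested. Of the 8 beta chains, all tested, 3 were higher and 2 lower without overlap, near those shares of all genes. Itgb3, the partner of Itgav in the vitronectin receptor of osteoclasts, had 114 and 58.2 CPM in MycCaP-BMP4 macrophages and 9.80 and 11.3 CPM in MycCaP macrophages (log2 fold change 3.03 ± 0.40 SE, edgeR adjusted p = 0.101). Per kilobase, Itgav over Itgb3 was 0.481 and 1.09 in MycCaP-BMP4 macrophages, against 4.61 and 4.63 in MycCaP macrophages. Itgb1, the common partner of Itga4, Itga5, Itga6 and Itga9, had 1110 and 1026 CPM in MycCaP-BMP4 macrophages and 935 and 1018 CPM in MycCaP macrophages, and Itgb5 had 584 and 381 CPM in MycCaP-BMP4 macrophages beside 444 and 435 CPM in MycCaP macrophages. Itgb6, the epithelial partner of Itgav, had 39 and 11 counts in MycCaP-BMP4 libraries and 1 and 0 counts in MycCaP libraries. Itgb4 and Itgb8 overlapped between the groups.

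Genes that activate integrins or link them to actin are the next group. Of 25 listed 23 were tested, and 6 were higher and 12 lower without overlap, beside 28.9% and 29.7% of all genes tested. The median log2 fold change was -0.58 and 0 passed. That median was -0.06 without MycCaP-BMP4 replicate 1 and 0.74 on the pan-macrophage scale, where the median of all genes was 1.66. The 4 with the smallest p were Tln2 (2.01 ± 0.41), Parva (2.04 ± 0.42) and Vcl (1.39 ± 0.33), which couple integrins to actin and lay higher, and Skap1 (-2.78 ± 0.72), an adaptor of T cells, which lay lower (log2 fold change ± SE, edgeR adjusted p from 0.140 to 0.155). Fermt3, the kindlin of blood cells, had 69.8 and 248 CPM in MycCaP-BMP4 macrophages and 391 and 330 CPM in MycCaP macrophages, and Fermt2, the kindlin of other tissues, had 53.1 and 20.3 CPM in MycCaP-BMP4 macrophages beside 9.97 and 15.9 CPM in MycCaP macrophages.

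Ligand genes in the same libraries were measured as well. Of 11 cell-surface ligands 9 were tested, and 2 were higher and 5 lower without overlap, beside 28.9% and 29.7% of all genes tested. Their median log2 fold change was -0.78, and 0.57 on the pan-macrophage scale. Thy1 (-2.04 ± 0.41), F11r (1.58 ± 0.44), Icam5 (2.53 ± 0.76) and Vcam1 (-1.60 ± 0.66) had the smallest p (log2 fold change ± SE, edgeR adjusted p from 0.139 to 0.271). Vcam1, the ligand of Itga4 and Itga9 pairs, had 93.6 and 363 CPM in MycCaP-BMP4 macrophages and 683 and 698 CPM in MycCaP macrophages. Icam1, the ligand of Itgal and Itgam pairs, had 93.3 and 272 CPM in MycCaP-BMP4 macrophages and 488 and 402 CPM in MycCaP macrophages. Of 23 matrix ligands 22 were tested, and 9 were higher and 4 lower without overlap, against the same shares of all genes. Their median log2 fold change was 0.10, -0.04 without MycCaP-BMP4 replicate 1 and 1.83 on the pan-macrophage scale. Setting Vtn and Ibsp, each at 0 in 1 group, to their bounds could not move the median of 0.10, as neither crosses it. Fn1 (fibronectin), the ligand of Itga5, had 5403 and 4417 CPM in MycCaP-BMP4 macrophages and 1414 and 1989 CPM in MycCaP macrophages (log2 fold change 1.53 ± 0.52 SE, edgeR adjusted p = 0.219). Vtn (vitronectin), a ligand of Itgav pairs, had 0 counts in both MycCaP-BMP4 libraries and 227 and 350 counts in the MycCaP libraries, which is at least 185-fold lower in MycCaP-BMP4 with 3 counts per group as the floor (edgeR adjusted p = 0.0891). Ibsp, a bone sialoprotein with an RGD sequence, had 49 and 44 counts in MycCaP-BMP4 libraries and 0 in the MycCaP libraries, at least 32.3-fold higher with that floor. Lamb3, a laminin chain, had 17.4 and 7.69 CPM in MycCaP-BMP4 macrophages and 0.131 and 0.211 CPM in MycCaP macrophages (edgeR adjusted p = 0.0891).

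Genes with profiles most like each alpha integrin over the 4 libraries were found by the root mean square difference of centred log2 CPM among 14074 other genes. For Itgam they were Zfp608, Fhad1 and March1, with differences of 0.0456 to 0.0591, and for Itgax Mmp12, Slc36a3os and Cd28 (0.0842 to 0.0862). Itgal was nearest to Abhd15, Lrp4 and H2-Oa (0.0497 to 0.0743) and Itgae to Cyfip2, Ctnnd2 and Kynu (0.0304 to 0.0517). Itga4 was nearest to Kcnj10, Vis1 and Phf11d (0.0460 to 0.0667) and Itga9 to Fcrls, Parvg and Zfp558 (0.0248 to 0.0349). For Itga5 they were mt-Rnr2, Cdan1 and Nufip1 (0.00255 to 0.0398), for Itgav Fbxo11, Lima1 and Zfp655 (0.0220 to 0.0228) and for Itga6 Tut4, Nudt4 and Gins3 (0.0190 to 0.0219). They rest on 4 libraries and are a description.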

How the data were processed

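The authors deposited raw counts, whole numbers of reads per gene, 1 file a sample. The submitters' processing notes name HTSeq, Bowtie2 2.2.3, RSEM, STAR 2.6.0b and the build GRCm38 (mm10). For the roles of these tools, the annotation release and the strand setting, the answer is not given in the sources used here. Per the labels' protocols, the libraries were strand-specific and paired-end, from RNA with an integrity number above 7. Reads outside genes made up 3.37% to 6.03% of all counted reads and stayed out of library sizes.

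Of the 39179 identifiers 37607 had a symbol and 37693 had coordinates in GENCODE M21. The chi-square per degree of freedom between replicates (279 in the MycCaP-BMP4 pair, 43.2 in the MycCaP pair) was far above sampling noise. Counts were filtered with filterByExpr (14075 genes left), scaled with TMM and tested with edgeR 4.0.16 (quasi-likelihood F test, two-sided, Benjamini-Hochberg adjusted p under 0.05, no covariate; R 4.3.3). Standard errors are the fold change over the root of F. DESeq2 1.42.0 and limma 3.58.1 were used as alternatives, with other scalings and filters, a replicate block and each library left out. The fit was run on simulated counts with less spread than these data, which checks the code and not its power here.

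The genes, lists and tests were chosen with earlier results of these data known. Named genes are the 10 alpha integrins, the other integrin chains, up to 4 genes per further list with the smallest p, and the 3 nearest profiles of each alpha integrin with a mean of at least 5 CPM (pseudocount 0.1 CPM). Icam1, Cdh1, Fn1, Fermt2, Fermt3, Haspin, Cerkl and the single marker genes given fall outside this rule, being picked with their values in view. Some genes that the rule names are not reported here.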

Additional observations from a re-analysis of the deposited data

How the results depend on the processing

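Gene counts called at an adjusted p under 0.05 moved with the test and the filter. Over all genes the reported 0 became 65 with library size only, 1141 with scaling on pan-macrophage genes (1118 higher, 23 lower), 1109 with no filter on low counts (784 higher, 325 lower) and 1385 with DESeq2. It stayed 0 with DESeq2 size factors, a minimum of 1 CPM in 2 libraries, and limma-voom. Scaling on pan-macrophage genes moved the median of all genes to 1.66, the alpha integrin median to -0.20 and the count of alpha integrins lower without overlap to 2, and Itga6 turned to 1.27. The share of all genes lower without overlap was not computed on that scale, so the count of 2 has no background beside it. Alpha integrins called were 3 with no filter and 3 with DESeq2. Beta chains called were 1 with library size only and 2 with pan-macrophage scaling, no filter or DESeq2, and ligand and activator genes called were 2, 13, 11 and 16 under these settings. Leaving out 1 library gave 0 to 5753 genes called, 0 to 6 alpha integrins, 0 to 4 beta chains, 0 to 39 ligand and activator genes and an alpha integrin median of -2.38 to -0.89. The calls came without MycCaP-BMP4 replicate 1 (1043 genes, 4 alpha integrins) and without replicate 2 (5753 genes, 6 alpha integrins), where the lone library is assumed to vary like the MycCaP pair. With a replicate block 2 genes were called and 0 alpha integrins. Libraries of the same number deviated against each other (correlation -0.15), and the crossed pairing, chosen after seeing the data, called 689 genes, 1 alpha integrin, 2 beta chains and 9 ligand and activator genes. Of the 117 recomputed fold changes of single alpha integrins 99 kept their direction and side of the threshold, 17 were past it in place of short of it, and 1 changed sign. The cause of these differences was not tested. Itga2 and genes of its level are limited by depth.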

Other observations

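Markers of other cell types differed between the libraries without belonging to the adhesion genes. Over all genes tested, 28.9% lay higher and 29.7% lower without overlap. Mast cell markers summed to 31.6 and 58.2 CPM in MycCaP-BMP4 libraries and 5.73 and 21.1 CPM in MycCaP libraries. The 5 of 7 that were tested were all higher without overlap. B cell markers summed to 65.8 and 136 CPM in MycCaP-BMP4 libraries and 174 and 229 CPM in MycCaP libraries. Ighm alone held 33.2 and 68.1 CPM in MycCaP-BMP4 libraries and 99.0 and 131 CPM in MycCaP libraries. Of the 6 B cell markers tested, 4 were lower and 1, Igkc, higher without overlap. Neutrophil and eosinophil markers summed to 52.2 and 68.8 CPM in MycCaP-BMP4 libraries and 78.7 and 77.8 CPM in MycCaP libraries, with Ly6g and Prg2 at 0 throughout. Platelet markers summed to 76.7 and 362 CPM in MycCaP-BMP4 libraries and 681 and 426 CPM in MycCaP libraries, of which Pf4 alone held 73.5 and 352 CPM in MycCaP-BMP4 libraries and 674 and 419 CPM in MycCaP libraries. Of the 8 platelet markers 4 were tested, and 2 were higher (Itga2b and Gp1ba) and 1 lower without overlap. Endothelial markers summed to 78.1 and 44.1 CPM in MycCaP-BMP4 libraries and 75.3 and 124 CPM in MycCaP libraries.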
